A study of Mus musculus with 12 samples.

Results

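Macrophage genes were followed in the dorsal root ganglia (DRG) of mice that lack Nf2 in the Schwann cell lineage, with or without Fak. The 39 genes were taken by symbol from the count table, which lists 49315 genes, and they cover the macrophage growth factor axis, pan-macrophage and leukocyte genes, ITAM adaptors and Fc receptors, genes of perivascular resident macrophages, microglia-like genes and monocyte genes. All 39 were found, and all 39 passed the filter on low counts that left 18295 genes for testing. Both groups were 10 months old and carried Postn-Cre, which recombines in Schwann cells and their precursors. The 6 Nf2 mice were Postn-Cre(+) and Nf2 flox/flox, and the 6 double knockout (DKO) mice were Postn-Cre(+), Nf2 flox/flox and Fak1 flox/flox, where Fak1 is the gene annotated as Ptk2. Each group held 3 mice labelled female and 3 labelled male, and each library was made from the pooled DRG of 1 mouse (8 per mouse). No mouse without Cre was compared here, so the values describe the loss of Fak on top of the loss of Nf2.

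Macrophages depend on the receptor CSF1R, which binds the growth factors CSF1 and IL-34. Many of their surface receptors have no signaling tail of their own and signal through the adaptors TYROBP and FCER1G, which carry ITAM motifs, and the lineage as a whole depends on the transcription factor PU.1, the product of Spi1. In peripheral ganglia and nerves, resident macrophages lie along vessels and around neuronal cell bodies, and monocytes from the blood can join them after injury or in tumors. In RNA from whole DRG, fewer macrophages and less RNA per macrophage cannot be told apart, and several of these genes are also read in other cells (Il34 in neurons and glia, Maf in sensory neurons, Lyz2 in neutrophils, Lyve1 in lymphatic endothelium).

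Promoters of members from both sides of the comparison are shown first, because PU.1 is a factor the macrophage lineage depends on and its own gene is a member. The box searched for was GAGGAA, the core of a PU.1 site, on both strands of the 250 bases before each transcription start, with sequences from RefSeq on GRCm38.p6. Of the 39 members, 28 had a promoter in that table, and 15 of them (53.6%) held the box, beside 6986 of 27025 genes (25.9%) overall. Counted by start site, 17 of 34 entries of members (50.0%) and 23.2% of all 32851 entries held it, and base composition was not matched between them. The longer GAGGAAGT, which contains the shorter box, was in 2 of the 28 (7.14%, beside 2.79% of all genes), in Pf4 and Ly6c2. The MAF half-site TGCTGAC was in 1 (3.57%, beside 4.31% of all genes), in Fcgr3, and the AP-1 site TGAGTCA in 2 (7.14%, beside 5.16%), in Cd68 and Folr2. Each stretch below is the 150 bases before a start, written 5′ to 3′ on the strand of the gene, and capitals mark the PU.1 box, which reads TTCCTC where it lies on the other strand. Cd53, Fcgr1 and Trem2 stand for the genes with lower means in DKO mice, and F13a1, Stab1 and Pf4 for those with higher means.
Cd53 (chr3:106790150-106790299, minus strand): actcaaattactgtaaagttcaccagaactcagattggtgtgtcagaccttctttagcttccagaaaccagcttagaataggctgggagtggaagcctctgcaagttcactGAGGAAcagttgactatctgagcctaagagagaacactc
Fcgr1 (chr3:96293970-96294119, minus strand): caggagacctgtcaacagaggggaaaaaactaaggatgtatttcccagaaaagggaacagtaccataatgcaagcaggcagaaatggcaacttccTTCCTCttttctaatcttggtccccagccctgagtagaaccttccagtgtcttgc
Trem2 (chr17:48346251-48346400, plus strand): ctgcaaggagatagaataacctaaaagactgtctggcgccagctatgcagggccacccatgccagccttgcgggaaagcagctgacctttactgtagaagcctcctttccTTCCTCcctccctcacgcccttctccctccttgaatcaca
F13a1 (chr13:37050245-37050394, minus strand): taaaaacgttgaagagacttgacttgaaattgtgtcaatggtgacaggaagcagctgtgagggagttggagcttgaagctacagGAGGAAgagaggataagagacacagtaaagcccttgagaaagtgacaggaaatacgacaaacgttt
Stab1 (chr14:31168642-31168791, minus strand): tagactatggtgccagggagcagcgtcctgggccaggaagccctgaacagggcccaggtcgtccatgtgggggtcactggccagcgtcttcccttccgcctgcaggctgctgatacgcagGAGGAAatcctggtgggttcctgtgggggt
Pf4 (chr5:90772285-90772434, plus strand): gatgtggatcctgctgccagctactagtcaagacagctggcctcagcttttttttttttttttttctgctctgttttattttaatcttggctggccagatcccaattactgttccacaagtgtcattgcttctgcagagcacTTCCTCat
The box began 39, 55, 40, 66, 30 and 8 bases before the start in these 6 promoters, in the order shown. A second listed start of F13a1 had no box before it. By role, it was in 6 of 9 matched pan-macrophage genes, 3 of 5 matched ITAM and Fc receptor genes, 5 of 8 matched perivascular resident genes and 1 of 3 matched monocyte genes, and in neither of the 2 matched microglia-like genes nor the 1 matched growth factor gene. All 6 stretches shown hold the box, so they cannot show whether it was more frequent among genes with lower or with higher means. Matched genes without it also lay on both sides, such as Mpeg1 (lower) and Cd163 (higher), and no binding was measured in these ganglia.

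Total counts ranged from 21129191 to 41250329 per mouse, and the 39 genes together took 0.0752 to 0.101% of them. Levels are given as CPM, counts scaled by each library's total count, as mean ± SD with n = 6 mice per genotype unless stated otherwise, and fold changes as log2 of DKO over Nf2 from edgeR's quasi-likelihood test with Benjamini-Hochberg adjustment over the 18295 genes. Ptk2 had means of 70.0 ± 3.60 CPM (Nf2) and 64.0 ± 10.4 CPM (DKO) (log2 fold change -0.15, edgeR adjusted p = 0.529), so whole DRG did not show its deletion in the Cre-expressing cells. Mitochondrial genes took 1.99 to 5.60% of counts and were highest in DKO mouse 887 (5.60%) and Nf2 mouse 649 (4.45%). Nf2 mouse 702, labelled male, had 496 CPM of Xist and 0.525 CPM of the Y-linked Ddx3y, against its label. Whether its genotype label holds was not tested, and results that rest on labelled sex are given with that in view.

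No member changed at an adjusted p under 0.05 in the edgeR test, beside 0.940% of all tested genes (172 genes). At an unadjusted p under 0.05, 15 of the 39 were lower in DKO mice and 5 higher, where 7.96% and 6.91% of all tested genes were lower and higher. By sign alone, 28 members had a lower and 11 a higher fitted level in DKO mice, and 49.0% of all tested genes had a lower one. The median log2 fold change was -0.28 over the members and 0.00467 over all tested genes. In 18 members, all 6 DKO mice lay below the Nf2 mean (9.02% of all tested genes), and in 5 members all 6 lay above it (8.37%). In no member did the genotypes separate without overlap (1.95% of all tested genes). DESeq2 called 7 members at an adjusted p under 0.05, with Csf1r, Cd14, Tmem119, Ctss and Fcgr1 lower (2.69% of all genes) and Cd163 and F13a1 higher (1.85%). Limma voom with sample quality weights called 3, with Csf1r, Cd14 and Tmem119 lower (1.69%). The plot of fold changes by role shows the members of each role group side by side, and 4 of the 6 groups held members of both signs.

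**Figure D1:**
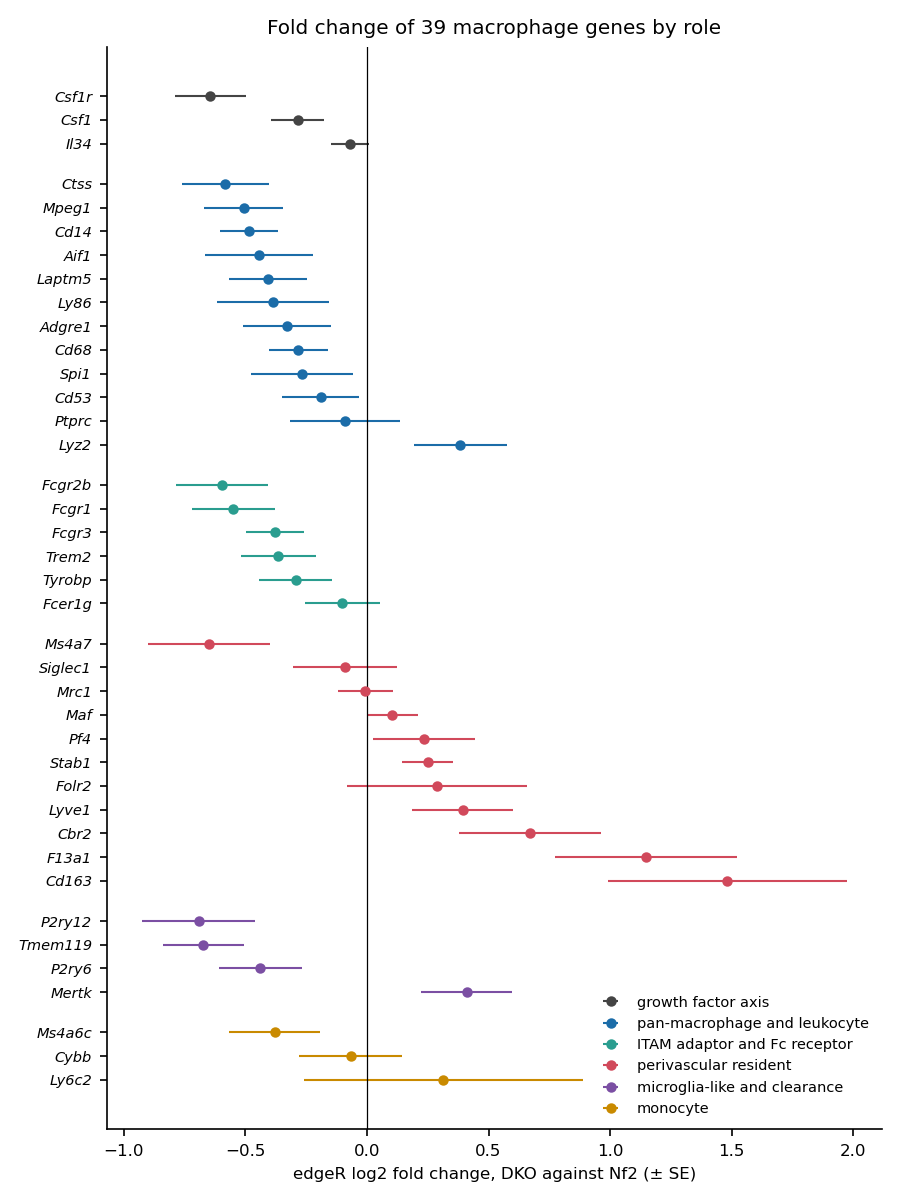
Log2 fold change of each of the 39 macrophage genes, DKO against Nf2 (edgeR, horizontal axis, points with bars of 1 SE), grouped and colored by role on the vertical axis. The growth factor axis and the ITAM and Fc receptor genes all lie left of 0, 11 of 12 pan-macrophage genes lie left of it, and 8 of 11 perivascular resident genes lie right of it.

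The growth factor axis comprised the receptor Csf1r and its ligands Csf1 and Il34, and all 3 had lower means in DKO mice. Csf1r (chr18:61100598-61132149, GRCm38, plus strand) spanned 50.9 to 81.9 CPM in Nf2 mice with a median of 69.8, and 31.1 to 56.3 CPM in DKO mice with a median of 46.5. Of the DKO mice, 4 lay below every Nf2 mouse and all 6 below the Nf2 mean, and the overlap came from Nf2 mouse 1048 at the low end. Its means were 68.8 ± 11.4 and 44.7 ± 9.45 CPM, a log2 fold change of -0.65 with an SE of 0.15 (edgeR adjusted p = 0.0566), the smallest adjusted p of the 39. Leaving out 1 mouse at a time gave -0.73 to -0.57, and the adjusted p was 0.0268 without mouse 1048 and up to 0.124 without DKO mouse 887. Mouse 702, whose sex label its reads go against, was the highest in Csf1r. With mice 702 and 887 both left out, the log2 fold change was -0.51 (edgeR adjusted p = 0.107). Exons of Csf1r overlap those of Hmgxb3 on the other strand by 873 bases, and how strand entered the counting is not given in the sources used here. Hmgxb3 itself had means of 28.8 ± 5.09 CPM (Nf2) and 30.9 ± 4.61 CPM (DKO), with a difference of 0.08 (log2, edgeR adjusted p = 0.819).

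Csf1, the secreted growth factor, spanned 39.02 to 59.3 CPM across Nf2 mice (median 44.7) and 30.0 to 42.0 CPM across DKO mice (median 39.7). All 6 DKO mice lay below the Nf2 mean, although 4 of them stayed within the Nf2 range. Its log2 fold change was -0.28 with an SE of 0.11 (edgeR adjusted p = 0.226). Il34, the second ligand, spanned 50.8 to 64.6 CPM across Nf2 mice (median 60.6) and 51.1 to 63.2 CPM across DKO mice (median 56.6). The 2 ranges of Il34 nearly coincided, with a log2 fold change of -0.07 and an SE of 0.08 (edgeR adjusted p = 0.731). Both ligands had a small spread between mice, with coefficients of variation of 7.74 to 15.3%.

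The 12 pan-macrophage and leukocyte genes had a median log2 fold change of -0.36, with 11 below 0, 5 of them at an unadjusted p under 0.05. Cd14, the coreceptor for bacterial lipopolysaccharide, had the smallest p of the group. It spanned 9.72 to 12.7 CPM across Nf2 mice (median 11.8) and 7.04 to 10.6 CPM across DKO mice (median 7.77), and 5 of 6 DKO mice lay below every Nf2 mouse. The means were 11.5 ± 0.991 and 8.35 ± 1.51 CPM, a log2 fold change of -0.49 with an SE of 0.12 (edgeR adjusted p = 0.0765). Without DKO mouse 885, the only DKO mouse within the Nf2 range, the adjusted p was 0.0477.

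Ctss, which encodes the lysosomal protease cathepsin S, spanned 45.0 to 83.5 CPM across Nf2 mice (median 71.6) and 32.9 to 61.3 CPM across DKO mice (median 44.6). Of its DKO mice, 3 lay below every Nf2 mouse, and its log2 fold change was -0.58 with an SE of 0.18 (edgeR adjusted p = 0.138). Mpeg1, which encodes the pore-forming perforin-2, spanned 41.5 to 84.0 CPM across Nf2 mice (median 62.7) and 32.1 to 54.3 CPM across DKO mice (median 46.1). Its log2 fold change was -0.51 with an SE of 0.16 (edgeR adjusted p = 0.152), and 2 DKO mice lay below every Nf2 mouse. In all 3 genes, each of the 6 DKO mice lay below the Nf2 mean.

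The common identity markers moved less. Adgre1, which encodes the surface antigen F4/80, had means of 8.45 ± 2.32 CPM (Nf2) and 6.84 ± 1.25 CPM (DKO) (log2 fold change -0.33, edgeR adjusted p = 0.427). Cd68, a lysosomal glycoprotein gene, had a log2 fold change of -0.28, Aif1, which encodes IBA1, -0.44, and Spi1, which encodes PU.1 itself, -0.27, with edgeR adjusted p values of 0.295, 0.375 and 0.610. Laptm5 and Ly86 lay at -0.41 and -0.39. The pan-leukocyte genes Ptprc, which encodes CD45, and Cd53 were at -0.09 and -0.19, and the 6 DKO mice were split evenly around the Nf2 mean for Ptprc (3 on each side). Lyz2, which encodes lysozyme of macrophages and neutrophils, was the only pan-macrophage gene with a higher mean in DKO mice, at 95.02 ± 24.0 and 126 ± 33.3 CPM (log2 fold change 0.38, edgeR adjusted p = 0.372).

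**Figure D2:**
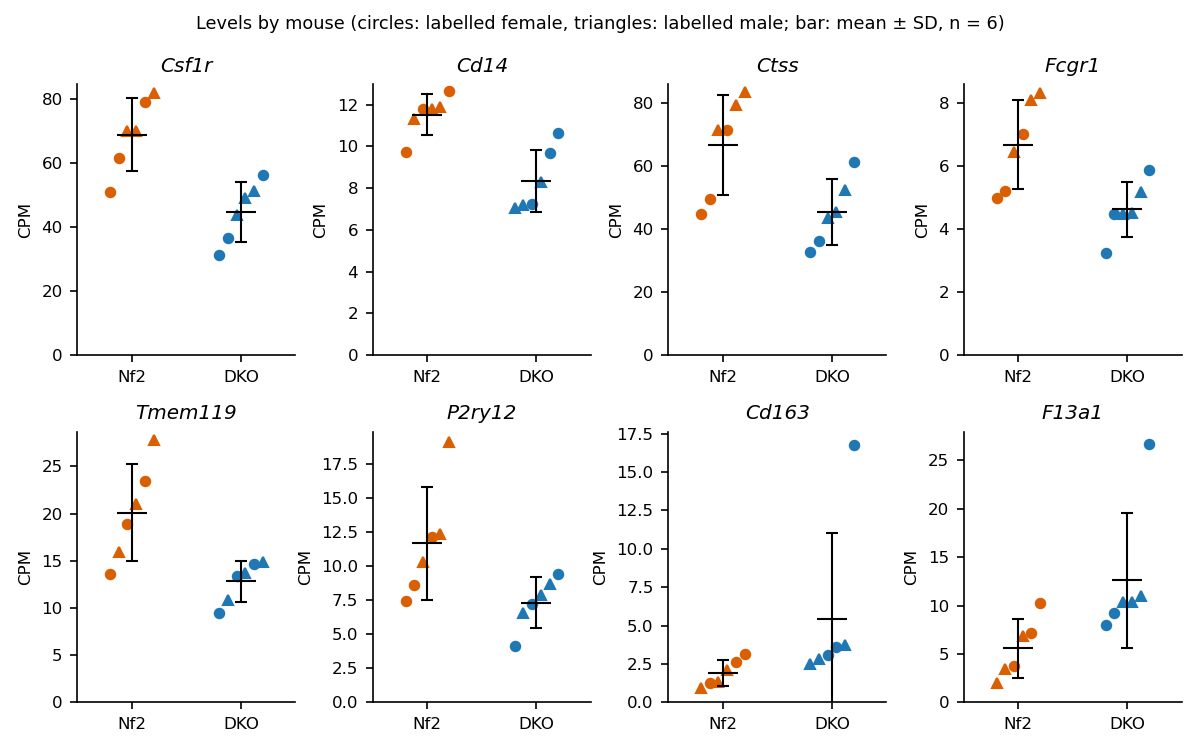
CPM by mouse of 8 members (vertical axes, each from 0), with circles for mice labelled female, triangles for mice labelled male, and a bar for the mean ± SD of 6 mice per genotype. Csf1r, Cd14, Ctss, Fcgr1, Tmem119 and P2ry12 sit lower in most DKO mice with partial overlap, whereas Cd163 and F13a1 sit higher, with mouse 886 at 16.8 and 26.7 CPM far above the other DKO mice. The lower bar of Cd163 in DKO mice runs past 0 and ends at the axis.

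All 6 ITAM adaptor and Fc receptor genes had lower means in DKO mice, with a median log2 fold change of -0.37 and 4 at an unadjusted p under 0.05. Fcgr1, the high-affinity receptor for IgG, spanned 4.97 to 8.33 CPM across Nf2 mice (median 6.71) and 3.24 to 5.87 CPM across DKO mice (median 4.49). Of its DKO mice, 4 lay below every Nf2 mouse, and the log2 fold change was -0.55 with an SE of 0.17 (edgeR adjusted p = 0.141). Fcgr2b, the inhibitory Fc receptor, spanned 8.99 to 18.5 CPM across Nf2 mice (median 10.6) and 6.52 to 10.1 CPM across DKO mice (median 7.70). It also had 4 DKO mice below every Nf2 mouse, with a log2 fold change of -0.60 and an SE of 0.19 (edgeR adjusted p = 0.152).

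Fcgr3, an activating Fc receptor, spanned 6.34 to 9.49 CPM across Nf2 mice (median 8.97) and 5.89 to 7.13 CPM across DKO mice (median 6.47). The DKO mice were close to one another, with a coefficient of variation of 6.51% beside 16.5% in Nf2 mice, and the log2 fold change was -0.38 with an SE of 0.12 (edgeR adjusted p = 0.154). Activating and inhibitory Fc receptors therefore lay on the same side. The adaptor genes Tyrobp and Fcer1g lay at -0.29 and -0.10 on the log2 scale (edgeR adjusted p = 0.380 and 0.811). Trem2, the lipid-sensing receptor that signals through TYROBP, lay at -0.36 (edgeR adjusted p = 0.280). Fcgr2b and Fcgr3 share 5.42% of the 75-base stretches of Fcgr3 transcripts, so reads from those stretches match both genes. Fcgr2b shares more stretches with Cplx2 than with Fcgr3, and Cplx2 was read at 288 ± 29.6 CPM (Nf2) and 308 ± 36.1 CPM (DKO).

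Of the 11 perivascular resident genes, 8 had a higher and 3 a lower fitted level in DKO mice, with a median log2 fold change of 0.25. At an unadjusted p under 0.05, 4 were higher and 1 lower. Cd163, the hemoglobin scavenger receptor, spanned 0.937 to 3.14 CPM in Nf2 mice (median 1.73). Mouse 886, a DKO mouse, had 16.8 CPM, and the other DKO mice had 3.11 CPM (885), 3.60 CPM (887), 3.73 CPM (914), 2.83 CPM (915) and 2.505 CPM (917). All 6 DKO mice lay above the Nf2 mean and 3 above every Nf2 mouse, and mouse 886 stood apart. The log2 fold change was 1.48 with an SE of 0.49 (edgeR adjusted p = 0.169), and without mouse 886 it was 0.70 (edgeR adjusted p = 0.300).

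F13a1, the coagulation factor XIII subunit made by resident macrophages, spanned 2.04 to 10.3 CPM in Nf2 mice (median 5.34). Mouse 886 again led the DKO mice with 26.7 CPM, and the others had 9.18 CPM (885), 7.95 CPM (887), 10.4 CPM (914 and 915 alike) and 11.0 CPM (917). All 6 DKO mice lay above the Nf2 mean and 4 above every Nf2 mouse. Its log2 fold change was 1.15 with an SE of 0.38 (edgeR adjusted p = 0.163), and 0.78 without mouse 886 (edgeR adjusted p = 0.309). Ms4a7, a membrane protein gene of the MS4A family, spanned 4.18 to 8.94 CPM across Nf2 mice (median 5.65) and 1.83 to 5.24 CPM across DKO mice (median 4.16). It was lower in DKO mice, unlike Cd163 and F13a1, with all 6 below the Nf2 mean and 3 below every Nf2 mouse. The means were 5.95 ± 1.68 and 3.83 ± 1.37 CPM, a log2 fold change of -0.65 with an SE of 0.25 (edgeR adjusted p = 0.234).

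Cbr2, a carbonyl reductase gene, had means of 1.19 ± 0.490 CPM (Nf2) and 1.93 ± 0.683 CPM (DKO) (log2 fold change 0.67, edgeR adjusted p = 0.296), again with all 6 DKO mice above the Nf2 mean. Stab1, which encodes the scavenger receptor stabilin-1, had means of 24.8 ± 3.59 CPM (Nf2) and 29.8 ± 3.63 CPM (DKO), a difference of 0.25 on the log2 scale (edgeR adjusted p = 0.275). Lyve1, the hyaluronan receptor shared with lymphatic endothelium, had a log2 fold change of 0.39, and Pf4, which encodes the chemokine CXCL4, 0.24 (edgeR adjusted p = 0.408 and 0.659). For Pf4 all 6 DKO mice lay above the Nf2 mean but within the Nf2 range. The mannose receptor gene Mrc1 was level, at 18.0 ± 1.94 and 18.2 ± 3.06 CPM, and its sign changed with the scaling used (log2 fold change -0.01 with TMM factors, 0.01 without). Siglec1, which encodes the adhesion receptor CD169, lay at -0.09 and the transcription factor gene Maf at 0.10. Folr2 was read at no more than 22 counts in any mouse, and 47.1% of its 75-base stretches are shared with the overlapping Gm10602.

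Single mice stood at the ends of several groups. Mouse 886 had the highest level of the 12 mice in 7 of the 11 perivascular resident genes and the lowest in 5 of the 12 pan-macrophage genes and 4 of the 6 ITAM and Fc receptor genes. DKO mouse 887 was lowest in another 5 pan-macrophage genes. Mouse 886 stood at the ends of some lists of other cells too. Its summed level was the highest of the 12 for blood endothelium (131 CPM). It was the lowest for Schwann cell (7922 CPM), fibroblast (1107 CPM) and T and NK cell (3.11 CPM) markers. In the remaining marker lists it was at neither end. Of the Nf2 mice, 649 was lowest in 4 perivascular resident genes and highest in 2 of the 4 microglia-like and clearance genes. Over all 39 members, mouse 649 was highest in 6 and lowest in 5, mouse 702 highest in 7 and lowest in 4, and mouse 1049 highest in 7 and lowest in 1. With mice 886 and 649 both left out, the median log2 fold change of the 39 was -0.17. At an unadjusted p under 0.05, 11 members were then lower and 2 higher, beside 1343 and 1203 of 18372 tested genes. With mice 702 and 887 left out instead, 12 members were lower and 3 higher at that level, beside 1731 and 1654 of 18374 tested genes.

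**Figure D3:**
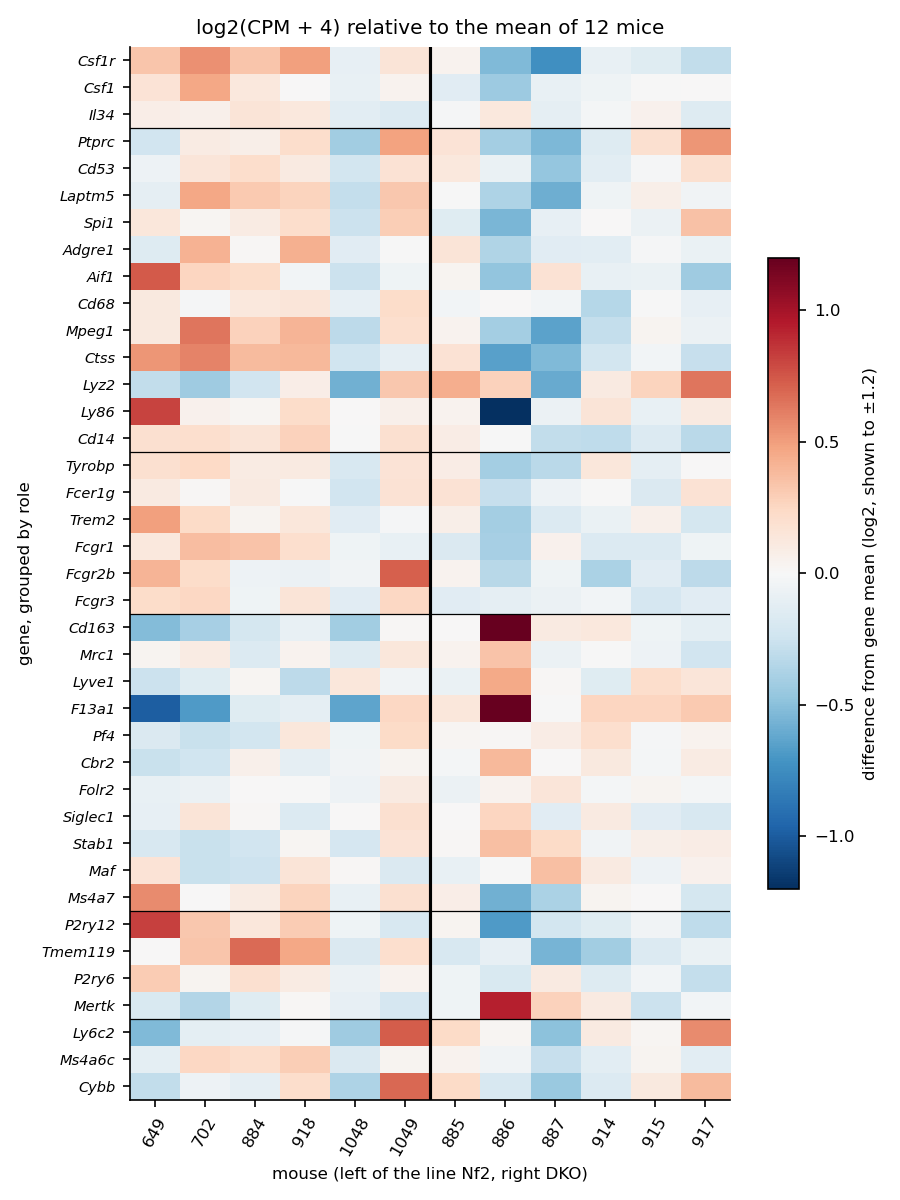
Log2(CPM + 4) of each member relative to its own mean over the 12 mice (color, red higher and blue lower, shown to ±1.2), with genes by role on the vertical axis and mice on the horizontal axis, Nf2 left and DKO right of the line. Mouse 886 is high in Cd163, F13a1 and Mertk and low in Ly86, Ctss and P2ry12. Mouse 649 shows the opposite in Cd163, F13a1, Ly86, Ctss and P2ry12.

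Among the 4 microglia-like and clearance genes, 3 had lower means in DKO mice. Tmem119, a membrane protein gene used to mark microglia, spanned 13.6 to 27.7 CPM across Nf2 mice (median 19.9) and 9.47 to 14.9 CPM across DKO mice (median 13.5). Of the DKO mice, 3 lay below every Nf2 mouse, and the means were 20.1 ± 5.13 and 12.8 ± 2.17 CPM. Its log2 fold change was -0.67 with an SE of 0.17 (edgeR adjusted p = 0.0783), and the adjusted p ran from 0.0299 without Nf2 mouse 1048 to 0.156 without Nf2 mouse 884. P2ry12, the ADP receptor that guides microglial processes, spanned 7.48 to 19.1 CPM across Nf2 mice (median 11.2) and 4.17 to 9.41 CPM across DKO mice (median 7.55). Its log2 fold change was -0.69 with an SE of 0.23 (edgeR adjusted p = 0.173), and -0.49 without Nf2 mouse 649, the highest of the 12.

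P2ry6, the UDP receptor that triggers phagocytosis, spanned 3.34 to 5.49 CPM across Nf2 mice (median 4.06) and 2.29 to 4.26 CPM across DKO mice (median 3.15). The log2 fold change was -0.44 with an SE of 0.17 (edgeR adjusted p = 0.239). Mertk, the receptor for apoptotic cells, which other cells of the ganglion also make, was the exception in the group. Its means were 25.8 ± 2.48 CPM (Nf2) and 34.7 ± 12.9 CPM (DKO) (log2 fold change 0.41, edgeR adjusted p = 0.321), and mouse 886 at 59.7 CPM set most of that difference, since without it the log2 fold change was 0.19.

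The 3 monocyte genes had a median log2 fold change of -0.07, and none passed an unadjusted p of 0.05. Ms4a6c spanned 2.90 to 5.54 CPM across Nf2 mice (median 4.48) and 2.41 to 4.02 CPM across DKO mice (median 3.32), with a log2 fold change of -0.38 and an SE of 0.19 (edgeR adjusted p = 0.368). Ly6c2, the defining surface antigen of inflammatory monocytes, spanned 0.383 to 6.43 CPM across Nf2 mice (median 1.84) and 0.473 to 5.35 CPM across DKO mice (median 2.62). Cybb, the gp91phox subunit of the phagocyte NADPH oxidase, spanned 14.3 to 34.2 CPM across Nf2 mice (median 18.4) and 13.5 to 27.0 CPM across DKO mice (median 19.5). The log2 fold changes were 0.31 with an SE of 0.57 for Ly6c2 and -0.07 with an SE of 0.21 for Cybb (edgeR adjusted p = 0.846 and 0.918). Both genes were highest in Nf2 mouse 1049, and DKO mouse 917 was the highest DKO mouse in each. In the sequence of their transcripts, Ms4a6c shares 47.7% of its 75-base stretches with the overlapping BE692007 and Ly6c2 shares 9.46% with Ly6c1.

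Neutrophil markers were highest and lowest in the same mice as Ly6c2. The 9 neutrophil markers, S100a8 and S100a9 among them, were all higher in DKO mice by sign (median log2 fold change 0.54), although none passed the test. Their summed level ran from 11.3 to 552 CPM across Nf2 mice and 16.7 to 461 CPM across DKO mice. It was highest in mice 1049 and 917 and lowest in mice 649 and 887. Lyz2 was highest in mouse 917 (168 CPM) and lowest in mouse 887 (68.6 CPM), but mice 1049 (134 CPM) and 649 (85.8 CPM) were not next to these ends. All 6 erythroid markers were higher in DKO mice by sign as well (median 0.76), with sums of 36.9 to 545 CPM (Nf2) and 59.9 to 770 CPM (DKO). The part of these cells in the values of Lyz2, Ly6c2 and Cybb was not tested.

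Levels between genes were compared as CPM per kilobase of annotated exon. In Nf2 mice Lyz2 was highest at 72.2 ± 18.2, followed by Ctss at 49.2 ± 11.7, Il34 at 30.0 ± 2.92 and Ly86 at 23.6 ± 6.12 CPM per kilobase. Tyrobp (16.3 ± 2.22), Maf (15.6 ± 2.20), Mpeg1 (14.6 ± 3.27) and Csf1r (11.9 ± 1.97) came next, and these neighbours lay within their spread of each other. From Csf1 at 8.75 ± 1.34 down to Cd163 at 0.350 ± 0.158 CPM per kilobase, each gene differed from the next by less than the spread between mice. At the low end, Siglec1, Cd163 and Folr2 lay at 0.393, 0.350 and 0.270 CPM per kilobase, so most perivascular resident genes were read at far lower levels than Ctss or Lyz2. In DKO mice Lyz2 remained first, at 95.6 ± 25.3 CPM per kilobase, and Csf1r lay at 7.74 ± 1.64.

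**Figure D4:**
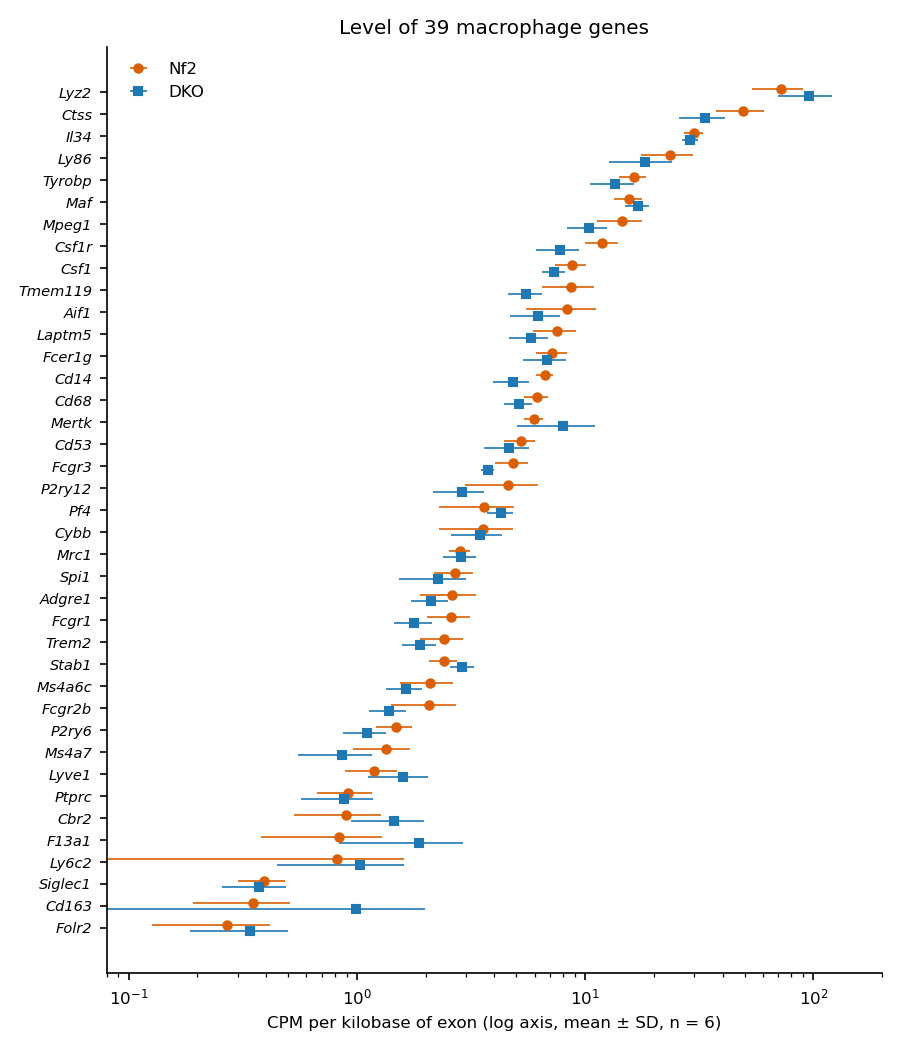
Mean ± SD over 6 mice of CPM per kilobase of exon (log axis) for each of the 39 members, ordered by the Nf2 mean, with Nf2 as circles and DKO as squares. The members span from 0.270 (Folr2) to 72.2 (Lyz2) in Nf2 mice. The bars of Ly6c2 in Nf2 mice and of Cd163 in DKO mice run past the left edge.

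Other macrophage genes, from lists that share no gene with the 39 and were also chosen with earlier results known, were read in the same fit. Of 23 other macrophage and microglia genes, 19 passed the filter, and 17 of them lay below 0, with a median log2 fold change of -0.41. At an adjusted p under 0.05, 4 were lower, beside 0.940% of all tested genes in either direction. C1qb, a chain of the complement initiator C1q, spanned 28.3 to 45.9 CPM (Nf2) and 19.5 to 26.4 CPM (DKO), with a log2 fold change of -0.71 and an SE of 0.12 (edgeR adjusted p = 0.0138). C1qb passed in all 12 fits that each left out 1 mouse, with an adjusted p of at most 0.0431. Gpr34, a lysophosphatidylserine receptor gene, lay at -0.88 on that scale (edgeR adjusted p = 0.0445) but passed in 2 of those 12 fits.

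Siglech, a Siglec family receptor gene of microglia and plasmacytoid dendritic cells, is named after its value was seen, and lay at -0.96 (log2, edgeR adjusted p = 0.0472, passed in 3 of the 12 fits). The genotypes did not overlap in C1qb, Siglech and P2ry13, beside 1.95% of all tested genes. P2ry13 was also named after its value was seen. With mice 702 and 887 left out together, C1qb alone of the 19 passed (log2 fold change -0.61, edgeR adjusted p = 0.0434). The 4 genes of the list that were too low to test, Vsig4, Timd4, Marco and Cd209f, are known for macrophages of body cavities, liver and other tissues.

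Downstream of the receptors, 21 of 24 CSF1R and ITAM signaling genes lay below 0, with a median log2 fold change of -0.20, and none passed. The 15 genes of lipid-associated macrophages had a median of -0.12, with 12 below 0 and none past the threshold. Of the 15 recruited monocyte genes, 13 were tested, with 8 above and 5 below 0, a median of 0.28 and none past the threshold. DESeq2 and limma voom also called none in these 3 lists, and at an unadjusted p under 0.05 edgeR had 8 lower signaling genes, 2 lower lipid-associated genes and 1 lower recruited monocyte gene.

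Markers of other cells differed between the genotypes in part. All 8 skeletal muscle markers were lower in DKO mice by sign (median log2 fold change -2.09), with a summed level of 48.4 to 880 CPM (Nf2) and 59.0 to 307 CPM (DKO). The low ends of both ranges, in mice 702 and 886, were mostly Pvalb, at 39.2 and 44.0 CPM. The mean log2 CPM of the 8 muscle markers in each mouse, not their sum, was used as a covariate. The log2 fold change of Csf1r was then -0.67 and that of Cd14 -0.53 (edgeR adjusted p = 0.103 and 0.123). In that fit C1qb still passed (edgeR adjusted p = 0.0243), while Gpr34 and Siglech did not (0.0648 and 0.0986). Schwann cell and sensory neuron markers had medians of -0.07 and -0.01. Blood endothelial markers were above 0 in 5 of 6 genes (median 0.21), all 6 B and plasma cell markers were above 0 (0.81), and all 6 tested T and NK cell markers and all 5 mast cell markers were below 0 (-0.35 and -0.52). All 5 tested dendritic cell markers were above 0 (0.20) and all 4 tested adipocyte markers below 0 (-0.18), while satellite glia (0.00167), fibroblast (0.05), lymphatic endothelial (0.26), oligodendrocyte (0.50) and astrocyte (0.42) markers were mixed. No gene of these marker lists passed the adjusted edgeR threshold. At an unadjusted p under 0.05, 7.96% of all tested genes were lower and 6.91% higher. At that level 6 skeletal muscle and 2 mast cell markers were lower, and 4 B and plasma cell markers higher. The T and NK cell, Schwann cell, satellite glia and fibroblast lists each had 1 lower. In the Schwann cell and satellite glia lists it was the same gene, Cdh19, which both lists hold. The dendritic cell, fibroblast, erythroid, oligodendrocyte and astrocyte lists each had 1 higher. DESeq2 called Cdh19 lower and Gfap higher, and limma voom called these and Cd79a (higher). The lymphatic gene Ccl21a was at 0 in every mouse. The part of these cells in the members' values was not tested.

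The genotype difference was also taken within each labelled sex, in mice that do not overlap. Of the 39 members, 22 were lower and 9 higher in DKO mice in both sexes, and 8 had opposite signs. Csf1r had a log2 fold change of -0.63 in mice labelled female and -0.66 in mice labelled male, Tmem119 -0.58 and -0.76, and F13a1 1.04 and 1.30. No member passed the test of the interaction of genotype with labelled sex, beside 0.0109% of all genes, and none passed that of the sex difference, beside 0.0164%. At an unadjusted p under 0.05, where 4.78% of all genes lay, the interaction took in Aif1 and Pf4. At that unadjusted level the sex difference took in Csf1, Cd163 and Stab1 (2.91% of all genes). Aif1 differed by 0.06 in females and -0.87 in males, and Pf4 by -0.16 and 0.74 on the log2 scale (edgeR adjusted p = 0.920 for both interactions). Ly6c2 had the widest gap, at -0.56 and 1.31, with an unadjusted p of 0.123 for the interaction. Mouse 702 counts among the males here by its label, and without it no member passed either test.

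**Figure D5:**
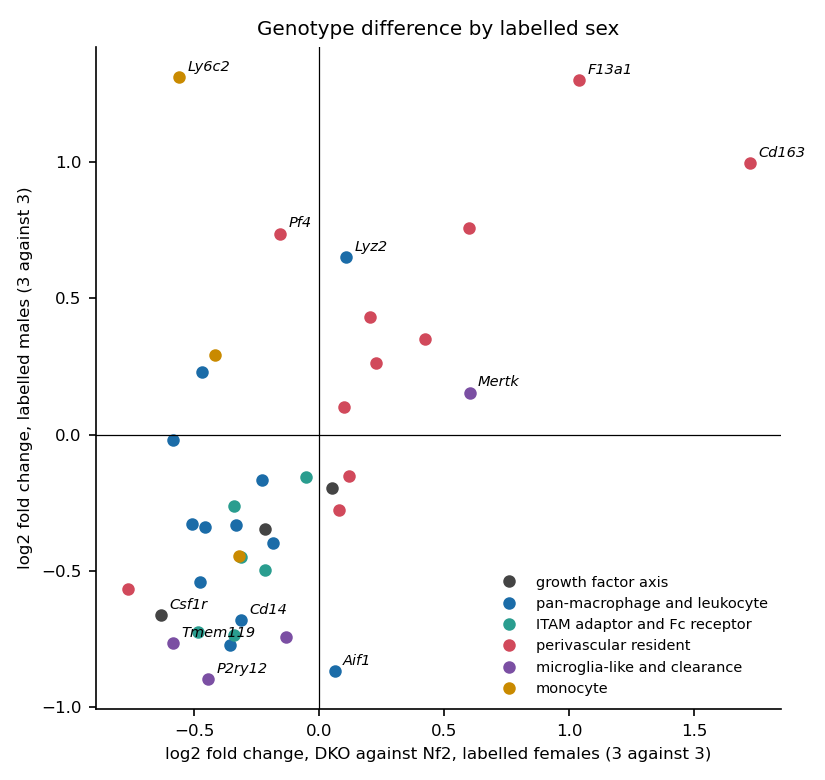
Log2 fold change, DKO against Nf2, of the 39 members in mice labelled female (horizontal axis) and in mice labelled male (vertical axis), each 3 against 3, colored by role. Of the points, 22 lie in the lower left and 9 in the upper right, and Ly6c2, Pf4 and Aif1 lie off that diagonal.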

How the data were processed

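Bulk RNA-seq of whole DRG was analysed, with 1 library per mouse and the genotype and labelled sex of each mouse taken from the labels. Per the labels, poly(A) RNA libraries were made by a commercial provider, and the submitters' processing notes name Trimmomatic 0.36, STAR 2.5.2b, featureCounts, Subread 1.5.2 and GRCm38. The authors deposited raw counts per Ensembl gene without normalization, and how strand and multi-mapping reads were handled is not given in the sources used here. The members and lists were chosen with earlier results of these data known.

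Counts were filtered with filterByExpr, scaled with TMM factors and tested with edgeR 4.0.16 (quasi-likelihood F test, DKO against Nf2, no covariate) in R 4.3.3, with Benjamini-Hochberg adjustment over 18295 genes and a threshold of 0.05. DESeq2 1.42.0 and limma 3.58.1 (voom) were alternatives, beside other scalings, filters, covariates and samples. The scripts were tested on simulated data. The biological coefficient of variation was 19.8%, which exceeded counting error for most members. It did not for Folr2, at 5 to 22 counts per mouse. Nor did it in the lowest mice of Ly6c2, Cbr2 and Cd163, with 9, 14 and 22 counts. The labels used here give no litter or processing day. Coordinates and exon lengths came from GENCODE M21, which held 99.5% of the table's genes, and sequence sharing was counted over 75-base stretches of its transcripts. Full values were given for up to 3 members of each role group with the smallest p, and for up to 3 genes of each other list among those past the threshold. One gene of the other macrophage and microglia list, included in its counts, is not reported here by name. No gene set test was run.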

Additional observations from a re-analysis of the deposited data

Results flagged for a closer look

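Each genotype of each member was checked for a mouse that stood apart from the other 5 (Dixon's test on log2(CPM + 4)). It marked 8 of 78 groups, where chance alone marks about 1 in 20, or 3.9. Of the 8, 5 were values of DKO mouse 886. In mouse 886, Cd163 was at 4.3769 (next DKO mouse 2.95), F13a1 at 4.9401 (next 3.90) and Cbr2 at 2.8552 (next 2.59), all above the other DKO mice. Ly86 was at 4.9301 (next 6.17) and Csf1 at 5.0883 (next 5.38) in the same mouse, both below the others. Nf2 mouse 649 was high in Ly86 at 7.0691 (next 6.48), so this gene was marked in both genotypes. Nf2 mouse 1048 was low in Tyrobp at 3.5930 (next 3.88), and DKO mouse 914 was low in Cd68 at 3.1175 (next 3.37).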

How the results depend on the processing

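No member passed the adjusted threshold in the edgeR test, and the count was 7 with DESeq2, 3 with limma voom and 1 without a count filter (Csf1r). Leaving out 1 mouse at a time gave 0 to 2 members, with Cd14 called without DKO mouse 885 and Csf1r and Tmem119 without Nf2 mouse 1048. The median log2 fold change of the members was -0.17 without mice 886 and 649, a choice made after seeing the data. Some log2 fold changes changed sign. Mrc1 was at 0.0120 without scaling factors, and Folr2 at -0.12 with limma voom. With the skeletal muscle level as a covariate, Ptprc was at 0.0314 and Cybb at 0.0944. In females only, Il34 was at 0.0524, Aif1 at 0.0616, Mrc1 at 0.12, Pf4 at -0.16, Siglec1 at 0.0790 and Ly6c2 at -0.56. In males only, Ptprc was at 0.23 and Cybb at 0.29, and at 0.31 and 0.35 without mouse 702 (chosen after seeing the data). Without mice 702 and 887, Ptprc was at 0.0220, Mrc1 at 0.0312, Folr2 at -0.0575, Siglec1 at 0.0325 and Maf at -0.0131, and without mice 886 and 649 Fcer1g was at 0.0084. Over the fits that left out 1 mouse, Mrc1 ran from -0.0991 to 0.0472, Ptprc from -0.25 to 0.0269 and Cybb from -0.17 to 0.13, and the other 36 members kept their sign. Over the 13 other alternatives, 28 members kept their sign in every one. The cause of these changes was not tested. Requiring at least 1 CPM in 6 mice left 38 of the 39 members. No paired analysis was possible because the genotypes share no mouse number. Depth limited Folr2, Ly6c2 and Cbr2, with as few as 5, 9 and 14 counts in a mouse.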

Other observations

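Summed over each role group, the perivascular resident genes and the ITAM and Fc receptor genes were ordered differently over the mice. DKO mouse 886 had the highest sum of perivascular resident genes (255 CPM) and the lowest of ITAM and Fc receptor genes (34.3 CPM), while Nf2 mouse 649 had the highest of the latter (64.7 CPM) and 211 CPM of the former. The perivascular resident sum is mostly Maf, which sensory neurons also make. Nf2 mouse 1048 had the lowest sums of the Nf2 mice for the growth factor axis (142 CPM), the pan-macrophage genes (302 CPM) and the ITAM and Fc receptor genes (42.6 CPM).

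The other complement C1q chains, named after their values were seen, lay on the side of C1qb. C1qa was read at 49.2 ± 7.36 CPM in Nf2 mice against 40.3 ± 5.06 CPM in DKO mice (n = 6 each), and C1qc at 32.8 ± 5.63 against 24.2 ± 2.26 CPM, with log2 fold changes of -0.31 and -0.46 (edgeR adjusted p = 0.223 and 0.0859). P2ry13, which like P2ry12 encodes an ADP receptor, was at 8.05 ± 1.76 CPM in Nf2 mice against 4.31 ± 1.40 CPM in DKO mice (log2 fold change -0.92, edgeR adjusted p = 0.0699).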
